A study of Mus musculus with 5 samples.

Results

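Bile acid synthesis enzymes convert cholesterol into conjugated bile acids. The set described here holds 10 of the 55397 genes in the table, chosen by name: Cyp7a1, Cyp8b1, Cyp27a1, Cyp7b1, Hsd3b7, Akr1d1, Amacr, Acox2, Slc27a5 and Baat. All 10 were found in the table and all 10 passed the filter on low values. Whole-tumour RNA came from a mouse model of cholangiocarcinoma, a cancer with bile duct features, in which hepatocytes of female C57BL/6N mice are transformed. The study compared tumours with and without forced expression of the transcription factor Prox1, and the question was how Prox1 changes the expression programme of established tumours. Per the labels, mice were 8 weeks old when plasmids were pushed into the tail vein under pressure, a method that delivers DNA mainly to hepatocytes. Both groups received CMV-driven Sleeping Beauty transposase, pT3-EF1a-AKT and pT3-EF1a-NICD-IRES-rtTA, so both carried Akt and NICD, the active intracellular part of a Notch receptor, under the EF1a promoter. The 3 Prox1 OE libraries came from tumours that also received pT3-Tre-FLAG-mmProx1-IRES-GFP, and the 2 Control libraries from tumours that received the empty vector pT3-Tre-IRES-GFP. The Tre promoter needs doxycycline, which the labels of both groups give as a 6.25% diet from day 21, with overexpression between weeks 3 and 4. Tumours were taken 1 week into overexpression or at the humane endpoint, and the labels do not say which applied to which sample. The study speaks of RNA from mice of this experiment, but no label ties a library to a mouse of its own, so the p-values measure only the spread between these samples, of which some or all may be technical.

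Bile acids are made in hepatocytes by a chain of enzymes in the endoplasmic reticulum, mitochondria and peroxisomes. The classical route begins with Cyp7a1, and the alternative route with Cyp27a1 and then Cyp7b1. Both routes share enzymes that remodel the steroid ring, shorten the side chain and attach taurine or glycine. Bile acids hold back their own synthesis: they activate the nuclear receptor FXR (Nr1h4), which induces SHP (Nr0b2), and SHP represses Cyp7a1 and Cyp8b1. PROX1 itself is known as a corepressor that binds HNF4A and LRH-1 (Nr5a2), both activators of the gene for the Cyp7a1 enzyme.

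All 10 enzymes were higher in Prox1 OE than in Control tumours. Their changes ran from 0.67 for Cyp7b1 to 2.13 for Cyp8b1 on the log2 scale, with a median of 1.71, against a median of -0.02 over the 17105 genes tested. By limma on log2(normalised count + 1), 10 of 10 passed an adjusted p of 0.05 upward and 0 downward, where 17.1% of all tested genes were called higher and 16.2% lower. With the total read count as library size, 9 of 10 were called higher, while over all genes 1472 were called higher and 6856 lower, in place of 2933 and 2769. edgeR and DESeq2 on the recovered reads also called 10 higher and 0 lower, and 0 were lower at an unadjusted limma p under 0.05. For each of the 10, all 3 Prox1 OE libraries lay above both Control libraries, which held for 30.9% of all tested genes. A normalised count is the number of reads of a gene divided by the size factor of its library. The members rested on 100 to 16534 reads per library.

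Before the single enzymes, the libraries need a short account. They held 48740863 to 56629477 reads each. Prox1 stood at 4153 and 4664 normalised counts in Control 1 and 2, and at 48090, 11113 and 8231 in Prox1 OE 1, 2 and 3. Its level was above Control in every Prox1 OE library but spread widely among them, and the change missed the threshold (limma adjusted p 0.061). The cell type label reads transformed hepatocytes. Abundant hepatocyte transcripts were present in every library: the summed normalised count of 16 secreted hepatocyte proteins, called the hepatocyte reference below, was 1798953 to 2561353 in Control and 4945710 to 6951106 in Prox1 OE. Of these 16 genes, limma called 12 higher and 0 lower, with 0 lower also at an unadjusted p under 0.05 and by edgeR and DESeq2, and the median change was 1.24 on the log2 scale. The sum of 10 bile duct cell markers was 758943 to 828042 in Control and 523659 to 707881 in Prox1 OE, but Spp1 alone made up 93.8% to 97.3% of it and was not called (-0.34, adjusted p 0.51), although it was called lower with the total read count as library size (-0.77, adjusted p 0.036). The other markers summed to 43293 and 46933 in Control, and to 17457, 19057 and 14342 in Prox1 OE. Of the 10, limma called 7 of the 9 tested lower and 0 higher (also 0 at an unadjusted p under 0.05 and by edgeR and DESeq2). In bulk tissue, fewer cells of a type and less RNA per cell cannot be told apart.

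Cyp7a1, the rate-limiting enzyme of the classical route, showed the second largest change with all libraries included. Without Prox1 OE 3 it stood at 1.86 on the log2 scale, as did Akr1d1, above Cyp8b1 at 1.52. Cyp7a1 (ENSMUSG00000028240, minus strand of chr4:6265612-6275633, mm10) had 134 and 218 normalised counts in Control 1 and 2. The Prox1 OE libraries 1, 2 and 3 had 765, 510 and 1008. The groups did not overlap, and the lowest Prox1 OE library was 2.34 times the highest Control library. The means were 176 ± 59.4 (SD, n = 2) and 761 ± 249 (SD, n = 3), a ratio of 4.33. The log2 difference was 2.09 (SE 0.32, 95% interval 1.34 to 2.84, limma adjusted p 0.0042).

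Cyp8b1 adds the hydroxyl group that sets cholic acid apart from the muricholic acids of the mouse. It had 428 and 989 normalised counts in Control 1 and 2, and 1876, 1866 and 6666 in Prox1 OE 1, 2 and 3. The groups did not overlap, but Prox1 OE 3 alone was 3.57 times the lowest library of its group, the widest spread among the 10. The means were 709 ± 397 (SD, n = 2) and 3469 ± 2769 (SD, n = 3), and the log2 difference was 2.13 (SE 0.59, 95% interval 0.76 to 3.51, limma adjusted p 0.029). This call was lost without Control 1 (1.53, adjusted p 0.18), without Prox1 OE 2 (2.44, adjusted p 0.054), without the variance trend (adjusted p 0.08) and with no filter on low values (adjusted p 0.056). Without Prox1 OE 3 the difference was 1.52 (adjusted p 0.027) and without Control 2 it was 2.74 (adjusted p 0.036), and both passed. Cyp8b1 (ENSMUSG00000050445) lies on the minus strand of chr9:121914356-121916305 (mm10).

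RefSeq start sites (GRCm38.p6) were matched for 5 of the 10 enzymes: Cyp8b1, Cyp27a1, Acox2, Hsd3b7 and Akr1d1. In the 250 bases before to 50 bases after each start, 3 sets of letters were searched on both strands. CAAAGTCCA, a site of the kind HNF4 binds, was in the window of Cyp8b1 alone among these 5 and in 0.475% of 32851 windows. CAAGGTCA, of the kind LRH-1 binds, was in none of the 5 and in 1.56% of all windows. GTTAAT, of the kind HNF1 binds, was in none of the 5 and in 7.1% of all windows. The first and second sets of letters do not contain each other. Among 13 matched genes of the list of other bile acid synthesis genes, CAAAGTCCA was found in 2 and before the start site in Cyp2c70, which makes muricholic acids in the mouse. These upstream stretches are shown because they hold the only CAAAGTCCA matches before a start site in these genes, 67 to 59 bases before it in Cyp8b1 (chr9:121916306-121916555, minus strand) and 64 to 56 bases before it in Cyp2c70 (chr19:40187287-40187536, minus strand). The capitals mark the 9 matching bases, and the sequences run 5′ to 3′ toward the start site.
Cyp8b1: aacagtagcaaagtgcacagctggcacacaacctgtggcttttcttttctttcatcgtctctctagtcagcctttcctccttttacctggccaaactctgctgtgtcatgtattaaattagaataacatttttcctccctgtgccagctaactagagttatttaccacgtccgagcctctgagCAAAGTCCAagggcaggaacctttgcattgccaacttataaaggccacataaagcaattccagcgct
Cyp2c70: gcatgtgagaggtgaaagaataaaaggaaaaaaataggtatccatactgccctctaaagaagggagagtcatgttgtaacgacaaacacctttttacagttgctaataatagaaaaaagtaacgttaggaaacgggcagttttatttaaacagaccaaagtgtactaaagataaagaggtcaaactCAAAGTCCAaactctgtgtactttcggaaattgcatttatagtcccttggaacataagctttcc
A match is a description of letters and not a measured binding site. No binding was measured in these samples.

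Cyp27a1, the mitochondrial sterol hydroxylase that opens the alternative route and also oxidises the side chain in the classical route, was called higher. It had 3697 and 4482 normalised counts in Control 1 and 2, and 11336, 12579 and 17439 in Prox1 OE 1, 2 and 3. The groups were well separated, with the lowest Prox1 OE library at 2.53 times the highest Control library. The means were 4090 ± 555 (SD, n = 2) and 13785 ± 3225 (SD, n = 3), and the log2 difference was 1.73 (SE 0.20, 95% interval 1.27 to 2.20, limma adjusted p 0.0025). The gene (ENSMUSG00000026170) lies on the plus strand of chr1:74713574-74737892.

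Cyp7b1, the oxysterol hydroxylase that follows in the alternative route, changed least. It had 694 and 602 normalised counts in Control 1 and 2, and 907, 1011 and 1177 in Prox1 OE 1, 2 and 3. The groups did not overlap, but the lowest Prox1 OE library was only 1.31 times the highest Control library. The means were 648 ± 65.3 (SD, n = 2) and 1032 ± 136 (SD, n = 3), and the log2 difference was 0.67 (SE 0.16, 95% interval 0.30 to 1.03, limma adjusted p 0.017). With the total read count as library size the difference was 0.23 (adjusted p 0.27). The call was also lost without Control 1 (0.77, adjusted p 0.078), without Control 2 (0.56, adjusted p 0.14) and without Prox1 OE 2 (0.68, adjusted p 0.053). Cyp7b1 (ENSMUSG00000039519) lies on the minus strand of chr3:18071950-18243338 and was the only member that was lower in Control 2 than in Control 1.

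**Figure D1:**
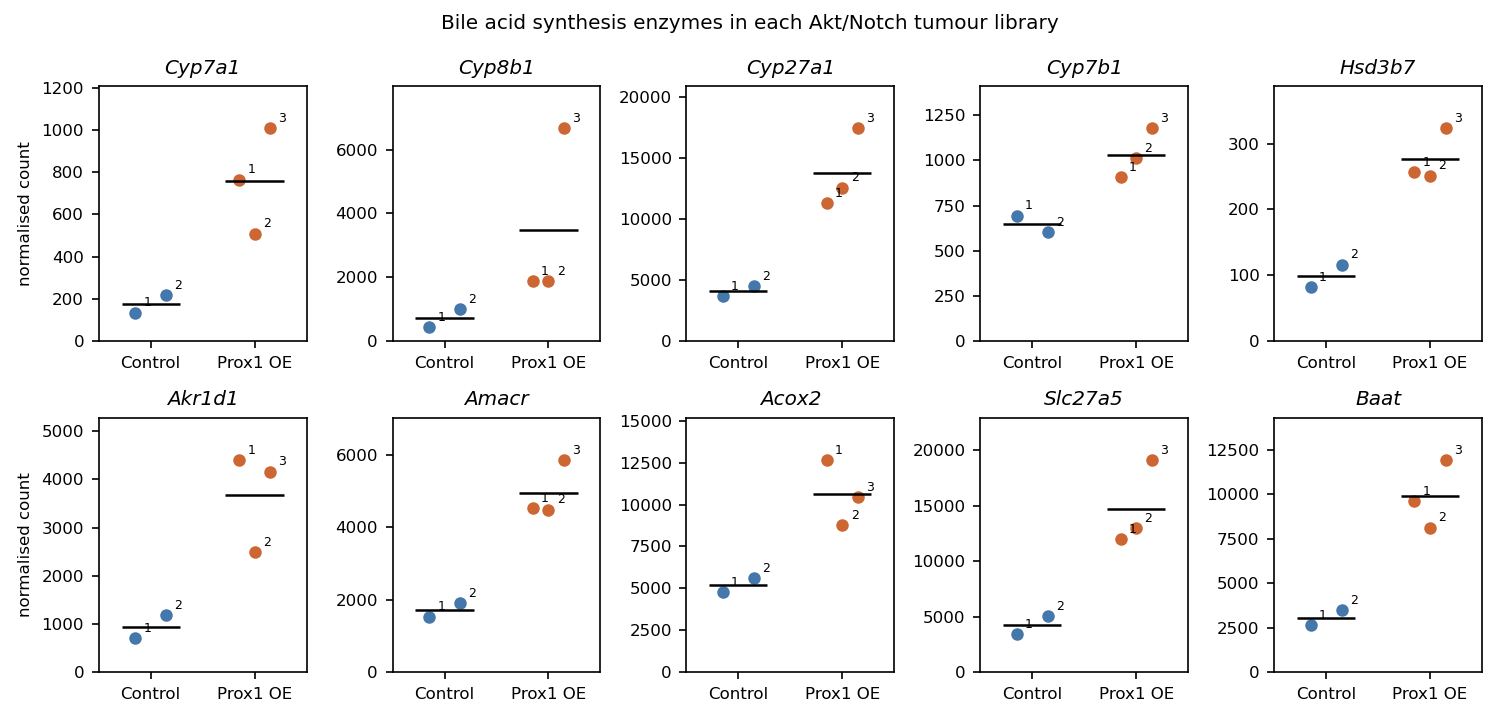
Normalised counts of the 10 enzymes, each in a panel with its own linear axis from 0, with libraries as numbered points (Control blue, Prox1 OE orange) and group means as lines. Every Prox1 OE point lies above both Control points, by the narrowest margin for Cyp7b1 (1.31 times) and the widest for Cyp27a1 (2.53 times).

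Both enzymes that remodel the steroid ring were called higher. Hsd3b7, the dehydrogenase that acts on the hydroxylated sterols of both routes, had 82.2 and 116 normalised counts in Control 1 and 2, and 257, 251 and 323 in Prox1 OE 1, 2 and 3. Its Prox1 OE libraries were close together and all above Control. The means were 99.1 ± 24.0 (SD, n = 2) and 277 ± 39.9 (SD, n = 3), and the log2 difference was 1.48 (SE 0.23, 95% interval 0.93 to 2.03, limma adjusted p 0.0046). Akr1d1, the reductase that bends the steroid nucleus into the bile acid shape, had 705 and 1181 normalised counts in Control 1 and 2. It had 4403, 2489 and 4163 in Prox1 OE 1, 2 and 3. Prox1 OE 2 was the lowest of its group but still 2.11 times the highest Control library. The means were 943 ± 337 (SD, n = 2) and 3685 ± 1043 (SD, n = 3), and the log2 difference was 1.97 (SE 0.30, 95% interval 1.27 to 2.66, limma adjusted p 0.004). Hsd3b7 (ENSMUSG00000042289) lies on the plus strand of chr7:127800604-127803802 and Akr1d1 (ENSMUSG00000038641) on the plus strand of chr6:37530173-37568815.

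Genes overlap 3 of the members, and the sources used here do not give how shared reads were counted. For Akr1d1 this is the pseudogene Gm7463 on the same strand, listed at 13.2 and 15.3 normalised counts in Control and 25.6, 31.9 and 75.2 in Prox1 OE 1, 2 and 3, far under Akr1d1 itself. For Hsd3b7 these are Gm49388, listed at 0 in all libraries, and 9430064I24Rik on the other strand, listed at 0 to 5.9. For Cyp7b1 it is the small nuclear RNA gene Gm23686, listed at 0 in all libraries. Among the other genes named here, Prox1, Hnf4a, Nr1h3, Nr1i3, Scp2, Slc27a2, Ch25h, Cyp39a1, Slc51a, Spp1 and Abcb11 overlap other genes as well. So do Apoh, Ahsg, Fgg and Trf, and Abcg5 and Abcg8 overlap each other on opposite strands.

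Both peroxisomal side-chain enzymes were called higher. Amacr, the racemase that turns the side chain into the form the oxidases accept, had 1536 and 1900 normalised counts in Control 1 and 2, and 4530, 4483 and 5852 in Prox1 OE 1, 2 and 3. These libraries agreed closely within each group. The means were 1718 ± 257 (SD, n = 2) and 4955 ± 777 (SD, n = 3), and the log2 difference was 1.52 (SE 0.16, 95% interval 1.15 to 1.90, limma adjusted p 0.0024). Acox2, the branched-chain oxidase that acts next, had 4782 and 5618 normalised counts in Control 1 and 2, and 12652, 8788 and 10425 in Prox1 OE 1, 2 and 3. Its groups did not overlap, and its highest library was Prox1 OE 1. The means were 5200 ± 591 (SD, n = 2) and 10622 ± 1939 (SD, n = 3), and the log2 difference was 1.02 (SE 0.17, 95% interval 0.62 to 1.42, limma adjusted p 0.0056). Without Control 1 the difference for Acox2 was 0.90 and the call was lost (adjusted p 0.059). Amacr (ENSMUSG00000022244) lies on the plus strand of chr15:10981756-10996626 and Acox2 (ENSMUSG00000021751) on the minus strand of chr14:8225511-8259353.

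Both enzymes of the last steps were called higher. Slc27a5, the ligase that couples bile acids to coenzyme A, had 3467 and 5084 normalised counts in Control 1 and 2, and 12015, 13008 and 19136 in Prox1 OE 1, 2 and 3. Its lowest Prox1 OE library was 2.36 times its highest Control library. The means were 4276 ± 1144 (SD, n = 2) and 14720 ± 3856 (SD, n = 3), and the log2 difference was 1.78 (SE 0.24, 95% interval 1.22 to 2.34, limma adjusted p 0.0031). Baat, which transfers the activated bile acid to taurine or glycine, had 2641 and 3516 normalised counts in Control 1 and 2, and 9640, 8136 and 11932 in Prox1 OE 1, 2 and 3. Here too the groups were apart, by 2.31 times between the nearest libraries. The means were 3078 ± 619 (SD, n = 2) and 9903 ± 1912 (SD, n = 3), and the log2 difference was 1.68 (SE 0.19, 95% interval 1.23 to 2.13, limma adjusted p 0.0025). Slc27a5 (ENSMUSG00000030382) lies on the minus strand of chr7:12988346-12998192 and Baat (ENSMUSG00000039653) on the minus strand of chr4:49489422-49506557.

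The libraries of a group were not alike across the enzymes. On the deposited scaling, Prox1 OE 3, the library with the least Prox1 of its group, held the highest level of 8 of the 10. Prox1 OE 1, with the most Prox1, held the highest level of Acox2 and Akr1d1. Control 2 was above Control 1 for 9 of the 10. All 16 hepatocyte reference genes were likewise higher in Control 2 than in Control 1. The mean log2 level of the hepatocyte reference was 16.12 and 16.60 in Control 1 and 2, and 17.32, 17.64 and 17.96 in Prox1 OE 1, 2 and 3. That of the 10 enzymes was 9.89 and 10.36 in Control, and 11.64, 11.46 and 12.10 in Prox1 OE. Set against the reference of the same library, the enzyme mean was thus highest in Prox1 OE 1. A relation of the enzymes to the Prox1 level was not tested.

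Set against the hepatocyte reference of the same library, the enzymes changed far less. This comparison asks whether an enzyme moved by more or less than abundant secreted hepatocyte proteins did. The median relative change of the 10 was 0.43 on the log2 scale, against -1.30 over all tested genes, with 8 of the 10 above 0 and 2 below. By limma, 1 of 10 was called relatively higher and 0 relatively lower, where 1.21% of all tested genes were called higher and 73.0% lower. At an unadjusted p under 0.05, 2 were higher and 0 lower. Cyp8b1 was the one called, at 0.85 (95% interval 0.12 to 1.58, adjusted p 0.032). That call was lost without Control 1 (0.49, adjusted p 0.39) and without Prox1 OE 3 (0.40, adjusted p 0.38). A fit blocked on replicate number, in which Prox1 OE 3 has no partner, lost it too (0.40, adjusted p 0.096), but there Cyp7a1 (0.74, adjusted p 0.016), Akr1d1 (0.74, adjusted p 0.011), Cyp27a1, Baat and Slc27a5 were called higher and Cyp7b1 lower (-0.56, adjusted p 0.013). In that blocked fit 2.10% of all tested genes were called higher and 78.4% lower. No label ties libraries of the same number, and the block leaves little replication to estimate the spread of a gene. Cyp7a1 was at 0.81 (95% interval 0.02 to 1.61, adjusted p 0.061) and Akr1d1 at 0.69 (95% interval -0.03 to 1.41, adjusted p 0.078), and neither passed without the block. The intervals of Slc27a5 (0.50, -0.14 to 1.13), Cyp27a1 (0.45, -0.18 to 1.09), Baat (0.40, -0.26 to 1.06), Amacr (0.24, -0.45 to 0.94) and Hsd3b7 (0.20, -0.66 to 1.06) all held 0. The values below 0 were those of Cyp7b1 (-0.62, 95% interval -1.38 to 0.15, adjusted p 0.14) and Acox2 (-0.26, 95% interval -0.90 to 0.38, adjusted p 0.46). With 1 library left out at a time, they ran from -0.96 to -0.27 for Cyp7b1 and from -0.56 to -0.10 for Acox2.

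**Figure D2:**
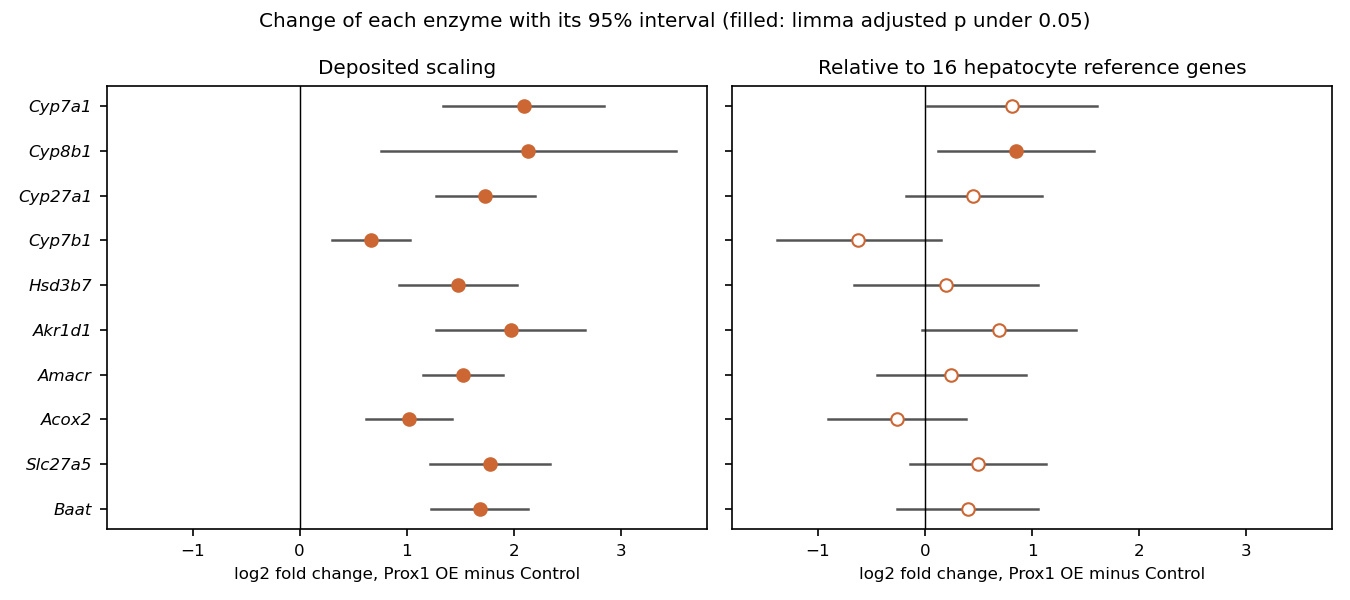
Log2 difference between Prox1 OE and Control for each enzyme with its 95% interval, on the deposited scaling and relative to the hepatocyte reference, with filled points for a limma adjusted p under 0.05. On the deposited scaling, every interval lies above 0, while relative to the reference only those of Cyp7a1 and Cyp8b1 do, and Cyp7b1 and Acox2 sit below 0.

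Ratios within a library do not depend on its scaling, and 3 were compared between the groups. Cyp7a1 over Cyp7b1 sets the classical against the alternative hydroxylase. This log2 ratio was -2.37 and -1.46 in Control 1 and 2, and -0.25, -0.99 and -0.22 in Prox1 OE 1, 2 and 3. The groups did not overlap, and the group means of -1.91 ± 0.64 (SD, n = 2) and -0.49 ± 0.43 (SD, n = 3) differed by 1.43. The two-sided exact permutation p was 0.1, the smallest that 2 against 3 libraries can give, and 0.3 adjusted over the 3 ratios. Cyp8b1 over Cyp27a1 was -3.11 and -2.18 in Control, and -2.59, -2.75 and -1.39 in Prox1 OE. These groups overlapped, with a difference of 0.40 that became -0.07 without Control 1 and -0.03 without Prox1 OE 3 (exact permutation p 0.7, adjusted p 0.7). Baat over Slc27a5 was -0.39 and -0.53 in Control, and -0.32, -0.68 and -0.68 in Prox1 OE. The groups overlapped here as well, with a difference of -0.10 (exact permutation p 0.6, adjusted p 0.7).

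Levels of different enzymes can be compared only per length of transcript, so normalised counts were divided by the exon length of each gene in kilobases. The order was the same in both groups: Cyp27a1, Slc27a5, Baat, Acox2, Amacr, Cyp8b1, Akr1d1, Cyp7b1, Cyp7a1 and Hsd3b7. In Control, Cyp27a1 led with 1882 ± 256 normalised counts per kilobase and Hsd3b7 closed with 35.8 ± 8.68 (SD, n = 2), a span of 52.6 times. In Prox1 OE the corresponding levels were 6344 ± 1484 and 100 ± 14.4 (SD, n = 3), a span of 63.4 times. Cyp7a1 was second to last in both groups, at 42.1 ± 14.2 normalised counts per kilobase in Control and 182 ± 59.7 in Prox1 OE. Several neighbours in this order could not be separated. In Control, the library values of neighbours did not overlap only between Acox2 and Amacr, Amacr and Cyp8b1, and Cyp7b1 and Cyp7a1. In Prox1 OE they did not overlap between Baat and Acox2, Acox2 and Amacr, Akr1d1 and Cyp7b1, Cyp7b1 and Cyp7a1, and Cyp7a1 and Hsd3b7.

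**Figure D3:**
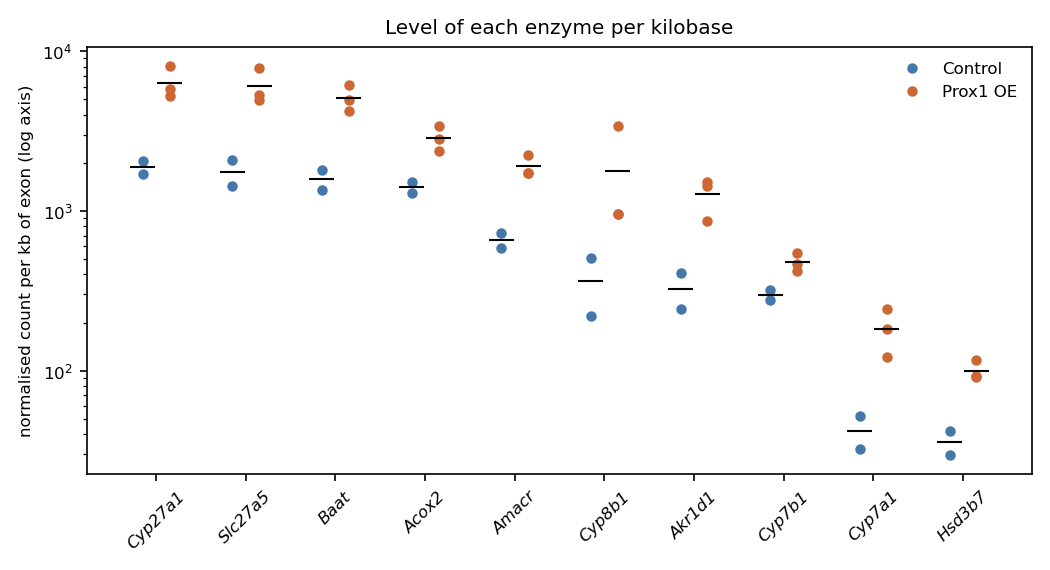
Normalised counts per kilobase of exon for the 10 enzymes, ordered by level on a log axis, with each library as a point (Control blue, Prox1 OE orange) and group means as lines. The order of the group means is the same in Control and Prox1 OE, from Cyp27a1 (1882 and 6344) to Hsd3b7 (35.8 and 100).

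Other genes of bile acid synthesis mostly moved the same way. Of 16 tested, limma called 11 higher, 2 lower and 3 neither, with a median log2 change of 0.79. Over all tested genes 17.1% were called higher and 16.2% lower, so the 2 of 16 called lower are below that share. Cyp2a12, a liver hydroxylase of the mouse that acts on secondary bile acids, rose from a mean of 13138 to 41211 normalised counts (log2 difference 1.66, adjusted p 0.003). Slc27a2, a very-long-chain acyl-CoA synthetase, rose from 8584 to 25322 (1.55, adjusted p 0.0026), and Cyp2c70 from 4158 to 11588 (1.44, adjusted p 0.018). Scp2, which holds the peroxisomal thiolase of side-chain shortening, rose from 52940 to 140398 (1.40, adjusted p 0.0038). The genes that fell were Ch25h and Cyp39a1. Ch25h, which hydroxylates the side chain of cholesterol, was at 175 and 274 normalised counts in Control, and 34.8, 61.4 and 39.4 in Prox1 OE (-2.29, adjusted p 0.0038). Cyp39a1, an oxysterol hydroxylase, was at 2509 and 2484 in Control, and 1717, 1483 and 1635 in Prox1 OE (-0.63, adjusted p 0.0073). In both, every Prox1 OE library lay below both Control libraries. Without Control 1, only 4 genes of this list were called higher and 1 lower. Fewer genes of this list were also called without Control 2. With the total read count as library size, 7 were called higher and 3 lower. Over all genes 8.59% were then called higher and 40.0% lower.

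Of 17 regulators of bile acid synthesis, limma called 9 higher, 0 lower and 8 neither. Of all tested genes it called 17.1% higher and 16.2% lower. The median log2 change of the regulators was 0.90. At an unadjusted p under 0.05, 1 was lower, and edgeR and DESeq2 called 0 lower. Without Control 1, 5 were called higher. Nr0b2, the repressor SHP that FXR induces, had 198 and 312 normalised counts in Control 1 and 2, and 1043, 1973 and 1535 in Prox1 OE 1, 2 and 3. The log2 difference of 2.56 (adjusted p 0.0025) was above the value of each of the 10 enzymes, without a test between them. The feedback repressor and its target genes Cyp7a1 and Cyp8b1 were each higher in every Prox1 OE library than in both Control libraries. Among the Prox1 OE libraries, Prox1 OE 2 held the most Nr0b2 but the least Cyp7a1 (510 normalised counts). It also held the least Cyp8b1 (1866, near the 1876 of Prox1 OE 1). The part of this feedback in the differences was not tested. Nr1h4, the bile acid receptor FXR, was at 2705 ± 67.7 normalised counts in Control and 5051 ± 453 in Prox1 OE, each with its SD over libraries, and this rise passed (limma adjusted p 0.0031). Hnf4a, an activator of Cyp7a1 and Cyp8b1, was at 9304 ± 1259 and 20703 ± 2935 and also passed upward (adjusted p 0.0033). Nr5a2, the receptor LRH-1, was at 3651 ± 242 and 2993 ± 182 and did not pass (-0.29, adjusted p 0.091). Every Prox1 OE library lay below both Control libraries for Nr5a2, the regulator that was lower before adjustment (limma p 0.038). It was called lower, at -0.72, with the total read count as library size. The median over all genes was then -0.45, and 40.0% were called lower. Nr1i3, a xenobiotic receptor, rose by 1.66 on the log2 scale (adjusted p 0.019), and Nr1h3, the oxysterol receptor LXR alpha, by 1.63 (adjusted p 0.0024). Klf15, a factor that controls fasting metabolism in liver, rose by 1.54 (adjusted p 0.023).

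Of 14 tested transporters of bile acids and bile lipids, limma called 11 higher, 0 lower and 3 neither. Of all tested genes it called 17.1% higher and 16.2% lower. The median log2 change of the transporters was 1.46. No transporter was lower at an unadjusted p under 0.05 or by edgeR or DESeq2, which both gave 0. Slc51a, a subunit of the basolateral bile acid exporter, was at or under the floor of 3 reads in every library and was not tested. Abcb11, the canalicular bile salt pump, had 2636 and 4089 normalised counts in Control, and 11350, 11143 and 19331 in Prox1 OE (2.04, adjusted p 0.0033). Slc10a1, the sodium-dependent uptake carrier for bile acids, had 762 and 1427 in Control, and 2138, 3404 and 9361 in Prox1 OE (1.97, adjusted p 0.034). The groups did not overlap for either, and Prox1 OE 3 was the highest library for both. Abcg8 and Abcg5, the partner subunits of the canalicular sterol exporter, rose by 2.15 (adjusted p 0.0032) and 1.78 (adjusted p 0.006). Without Control 1, 6 transporters were called higher.

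**Figure D4:**
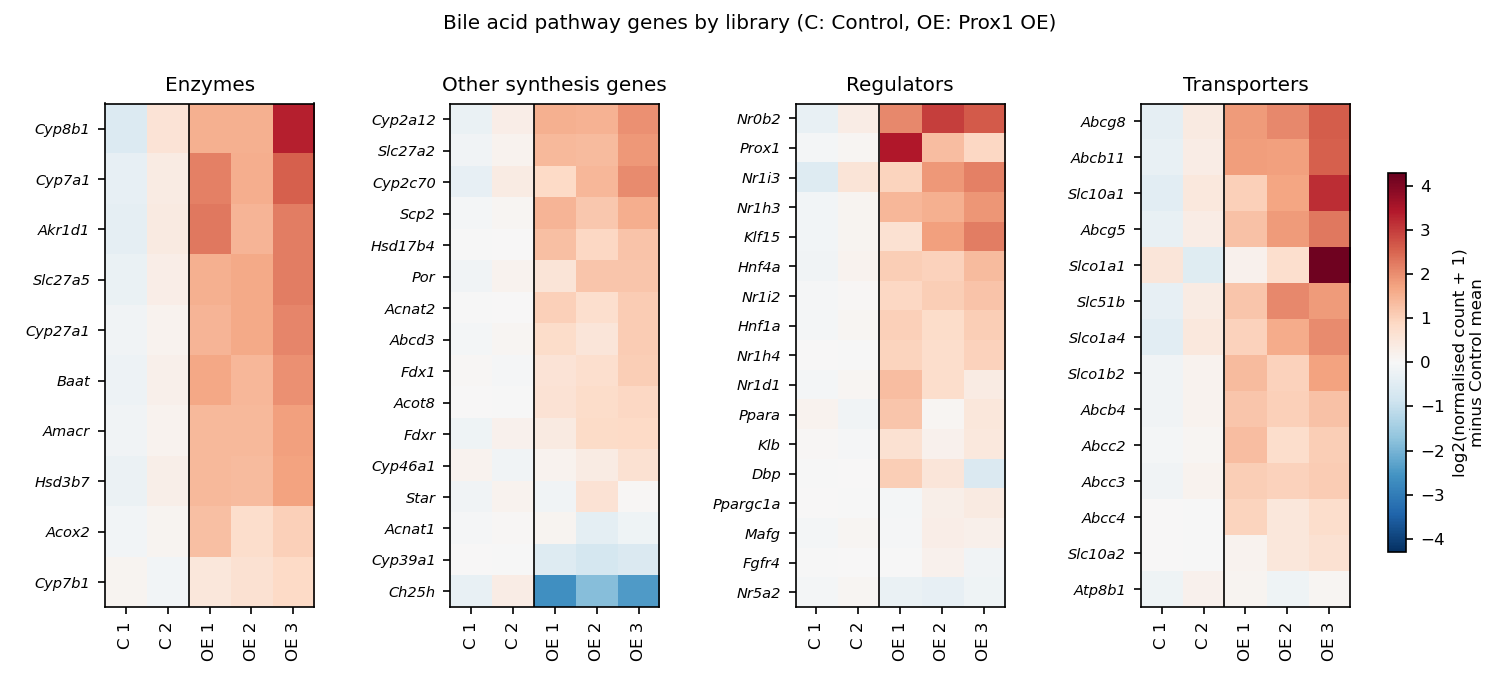
Log2(normalised count + 1) of each gene and library minus the mean of the Control libraries, for the enzymes, other synthesis genes, regulators and transporters, with red for higher and blue for lower. The enzymes form an unbroken red block in the Prox1 OE libraries, while Ch25h (-2.29) and Cyp39a1 (-0.63), the genes called lower, are blue. Nr5a2 (-0.29, not called) is also below Control in every Prox1 OE library, and a few other genes are in some.

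Markers of other cell types in the tumour differed between the groups to varying degrees, and their part in the enzyme differences was not tested. Their counts of calls stand against 17.1% of all tested genes called higher and 16.2% lower, and the 1 of 10 endothelial markers called lower is below that share. Of 10 macrophage markers, limma called 5 higher and 0 lower (0 lower also at an unadjusted p under 0.05 and by edgeR and DESeq2), with a median of 0.88 and a summed normalised count of 23351 to 24578 in Control and 39414 to 52325 in Prox1 OE. Of 10 endothelial markers, 4 were called higher and 1 lower (11988 to 14890 and 15695 to 20236). Of 10 stellate cell and fibroblast markers, 3 were called higher and 4 lower (124376 to 128416 and 70985 to 83143). With the total read count as library size, these counts turned to 2 higher and 4 lower for the endothelial list, whose median went from 0.49 to 0.05, and to 2 higher and 6 lower for the stellate cell and fibroblast list. Over all genes 8.59% were then called higher and 40.0% lower, so the 4 of 10 endothelial markers called lower match the share of all genes. Of 9 tested lymphocyte markers, 4 were called higher and 0 lower (847 to 1084 and 1344 to 1551, with 0 lower also at an unadjusted p under 0.05 and by edgeR and DESeq2).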

How the data were processed

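Total RNA of 5 tumour samples was made into stranded (dUTP) libraries and sequenced as paired reads of 100 bases. The deposited table holds normalised counts: the authors mapped reads with STAR to mm10 and divided the counts of each gene by a DESeq2 size factor, which gives a signal per gene and library. The counting tool, its strand setting and the annotation are not given in the sources used here. A second deposited table holds the authors' own fold changes and p-values and was not used. All values were whole multiples of 1 read (100%, tolerance 0.01), so reads could be recovered for count tests. Symbols matched 99.5% of the 55397 IDs, and coordinates come from GENCODE on mm10.

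The members, the lists and the rule for named genes (at most 4 called genes per list and direction with the largest change and a mean of at least 100, with Nr0b2, Nr1h4, Nr5a2, Hnf4a and Prox1 named always) were chosen with earlier results of these data known. Prox1 OE was compared with Control by limma 3.58.1 (R 4.3.3) on log2(normalised count + 1), letting the prior variance follow the mean level, for genes with a mean of at least 10 over the 5 libraries, without covariates, two-sided, with Benjamini-Hochberg adjustment over 17105 genes and a threshold of 0.05. Fold changes on this scale understate those of low genes. The same fit was run after subtracting, in each library, the mean over 16 hepatocyte genes (the hepatocyte reference). These were Alb, Ttr, Apoa1, Apoa2, Apoc3, Apob, Apoh, Ahsg, Ambp, Fga, Fgb, Fgg, Hpx, Vtn, Trf and Rbp4. Ratios were compared by exact permutation over samples (scipy 1.17.1). Alternatives were TMM factors or the total count as library size, pseudocounts of 0.1 and 10, no filter, a mean of at least 50, no trend, edgeR 4.0.16, DESeq2 1.42.0, a replicate block and leaving out each library. The fit was tested on simulated data. Libraries held 48740863 to 56629477 reads, and the floor of 3 reads was 2.46 to 3.54 normalised counts, for counting error only.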

Additional observations from a re-analysis of the deposited data

How the results depend on the processing

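The direction of all 10 enzymes held under each of the 15 alternatives, and of 150 values 141 kept their call and 9 lost it, all of them for Cyp7b1, Cyp8b1 or Acox2. Leaving out 1 library gave 7 to 10 enzymes called higher, with 7 without Control 1, where 5.21% of all genes were called higher, and 8 without Prox1 OE 2, where 12.4% were, against 17.1% with all libraries. A lone Control library is then assumed to vary like the other group. With the total read count as library size, the median change was -0.45 over all genes and 1.28 over the enzymes, a gap of 1.72 as in the reported fit, and 9 enzymes were called. Relative to the hepatocyte reference, Cyp8b1 was called in 7 of its 10 alternatives, and of 90 values of the other enzymes 84 remained not called and 6 became called. There 0 to 1 enzymes were called higher over the left-out libraries (0 without Control 1 and without Prox1 OE 3), and the replicate block gave 5 higher (Cyp7a1, Cyp27a1, Baat, Slc27a5 and Akr1d1) and 1 lower (Cyp7b1), while Cyp8b1 lost its call (0.40, adjusted p 0.096). The block drops Prox1 OE 3, and the replicate numbers share only a number: no label ties them, and their deviations correlated at 0.14 and 0.02. On the deposited scaling, the block left 10 enzymes called, with a median of 1.53. There it changed no count of calls for the other synthesis genes, regulators or transporters over 1.5 times. Relative to the hepatocyte reference, the share of all tested genes called higher went from 1.21% to 2.10%. Pairing the ratios by number, an alternative chosen after seeing the data, gave 1.30 for Cyp7a1 to Cyp7b1 (exact permutation p 0.5, the smallest for 2 pairs), -0.03 for Cyp8b1 to Cyp27a1 and -0.04 for Baat to Slc27a5 (both exact p 1).

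Over the left-out libraries, 4 to 11 of the other synthesis genes were called higher and 1 to 2 lower, 5 to 11 regulators higher and 6 to 12 transporters higher. With the total read count, 7 other synthesis genes were called higher and 3 lower, and 1 regulator lower. Over all genes 8.59% were then called higher and 40.0% lower, so both counts of lower calls are below that share. The ratio of Cyp8b1 to Cyp27a1 ran from -0.07 to 0.86. Over all genes, 5702 were called, 1511 without Control 1, 2499 without Control 2 and 8328 with the total count. The causes were not tested. With 2 Control libraries, the spread of that group rests on 1 difference.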

Other observations

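Hepatocytes near the portal vein and near the central vein express different enzymes, and classical bile acid synthesis is known to be strongest around the central vein. Markers of both zones were higher in Prox1 OE. Over all tested genes, 17.1% were called higher and 16.2% lower, with a median log2 change of -0.02. Of 10 pericentral markers, limma called 9 higher and 0 lower, with a median log2 change of 1.66 and a summed normalised count of 50618 to 69655 in Control and 126535 to 250836 in Prox1 OE. Cyp1a2, a drug-metabolising enzyme, rose from 1170 to 8004 (2.71, adjusted p 0.005), and Cyp2e1, which oxidises ethanol, from 20480 to 75566 (1.85, adjusted p 0.014). Of 10 periportal markers, 9 were called higher and 0 lower, with a median of 1.92 and sums of 77178 to 113480 and 281060 to 428976. Hal, the histidine-degrading enzyme, rose from 534 to 3763 (2.90, adjusted p 0.0058), and Ass1, of the urea cycle, from 9770 to 52037 (2.46, adjusted p 0.0028). In neither zone was a marker lower at an unadjusted p under 0.05 or by edgeR or DESeq2, which gave 0. The difference between the zones was not tested.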
